A study of Homo sapiens with 6 samples.

Results

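Integrins and laminins are the cell surface receptors and the basement membrane proteins through which epithelial cells hold on to their surroundings. An integrin is a pair of an alpha and a beta subunit that spans the plasma membrane, binds matrix or counter-receptors outside the cell, and connects to the actin or keratin cytoskeleton inside it. A laminin is a cross-shaped trimer of an alpha, a beta and a gamma chain, and laminins form the sheet on which epithelial cells rest. In epithelial tumors, pancreatic adenocarcinoma among them, the laminin receptors built from ITGA6 and ITGB4 or ITGA3 and ITGB1, the RGD receptors built on ITGAV, and laminin-332, to which LAMA3 and LAMB3 contribute, are known for their part in adhesion and invasion.

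The genes described here are all genes on the array whose symbol is that of an integrin alpha subunit, an integrin beta subunit or a laminin chain. The rule used names only, not measured values. It found 38 of the 34423 gene names on the array, of which 26 are integrin genes and 12 are laminin genes, measured by 58 probes at 94 spots.

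Expression was measured in 6 subcutaneous xenograft tumors of BxPC-3, an established human pancreatic adenocarcinoma cell line, 1 tumor per one-color human 60-mer array. The hosts were female BALB/c (nu/nu) mice, 8 to 10 weeks of age at the start of the experiments, and dosing began once tumors measured 150 mm3. In the DFX group (n = 3), deferasirox, an oral iron chelator, was given as a saline suspension by gavage at 200 mg/kg on alternate days, 3 times a week, for 21 days. The control group (n = 3) received vehicle only, and both groups carried the same cell line in the same nude mouse host, which lacks a thymus and most T cells but keeps other leukocytes. RNA was taken from the whole excised tumor, so mouse transcripts from host stroma, vessels and blood could also bind the human probes, and lower RNA per cell cannot be told apart from fewer cells of a type. Nothing in the labels ties a tumor to a litter or cage, and p-values measure the spread between these tumors only.

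Values are log2 intensities after quantile normalization between arrays, and a difference is the DFX mean minus the control mean on that log2 scale. A probe was tested with limma where its detection p-value was under 0.05 on all 6 arrays, and a gene stands by its brightest tested probe. A gene is called here when its unadjusted limma p was under 0.05, the kind of threshold the study used. Between 50.3% and 56.5% of all probes were well above background on each array, the lowest being DFX replicate 2, and between 60.3% and 65.5% of the 58 integrin and laminin probes were. No spot was saturated. All 6 arrays lay on 1 slide with the control tumors in row 1 and the DFX tumors in row 2, so slide row and treatment cannot be told apart. Control tumor 2 and DFX tumor 1 each stood alone in a slide column. Differences from the fit with slide column as a block, used below, therefore rest on control tumors 1 and 3 and DFX tumors 2 and 3. Epithelial markers were present as the label requires, with all 8 of a list of keratins, EPCAM, CDH1, CLDN4 and MUC1 well above background on all 6 arrays. The summed linear intensity of that list ran from 661597 to 677982 among controls and from 692064 to 701683 among DFX tumors. Of the 8, 3 (EPCAM, KRT8 and KRT18) were called higher, where 3.68% of all tested genes were. The list was written with earlier results of these data known. A linear sum leans on the brightest probe of its list, KRT19 here. In the lists below that is TNNI2 (muscle), GP9 (platelet), CD14 (leukocyte), VWF (endothelial) and COL1A1 (fibroblast).

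The 60-base probes below carry the results described further on, and are printed 5′ to 3′ as the array lists them, with the positions of the array annotation on hg19. They are the probes of both called members, of the common beta1 subunit, of LAMB2, whose 2 probes differed in sign, and the second probe of LAMA5, whose 2 tested probes also differed in sign. ITGA2B lies at chr17:42453290-42453349, ITGAE at chr17:3623609-3623668, ITGB1 at chr10:33200507-33200566, LAMB2 at chr3:49159144-49159203 and the LAMA5 probe named for NM_005560 at chr20:60885302-60885361, all on the minus strand.
ITGA2B: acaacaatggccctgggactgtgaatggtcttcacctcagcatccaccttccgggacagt
ITGAE: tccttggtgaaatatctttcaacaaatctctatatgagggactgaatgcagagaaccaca
ITGB1: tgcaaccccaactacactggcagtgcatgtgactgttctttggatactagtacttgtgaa
LAMB2, brightest probe: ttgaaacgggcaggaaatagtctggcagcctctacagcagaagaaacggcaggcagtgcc
LAMA5, second probe: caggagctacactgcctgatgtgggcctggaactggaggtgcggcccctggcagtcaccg

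No integrin or laminin probe shared a run of 20 bases with a printed probe of another gene (0 of 58). Human and mouse transcripts were not searched, so this count cannot show that the probes are specific. LAMA5 is given below by both of its probes.

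Of the 38 genes, 31 were tested and 25 of them, 17 integrins and 8 laminins, were well above background on all 6 arrays. The 7 genes that were not tested, ITGA4, ITGA8, ITGAD, ITGAL, ITGAX, LAMA1 and LAMB4, were well above background on no array. ITGAD, ITGAL and ITGAX are alpha subunits of the leukocyte beta2 integrins and lie with ITGAM on chromosome 16, and of these 4 genes ITGAM alone was well above background on any array. ITGA4 pairs with ITGB1 or ITGB7 on leukocytes, ITGA8 with ITGB1 on mesenchymal cells, LAMA1 is the alpha chain of the early embryonic laminin, and LAMB4 is a little-studied beta chain. ITGA2B and LAMC3 were well above background on 1 array each, ITGB3 on 4, and ITGA1, ITGA10 and LAMB2 on 5.

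**Figure D1:**
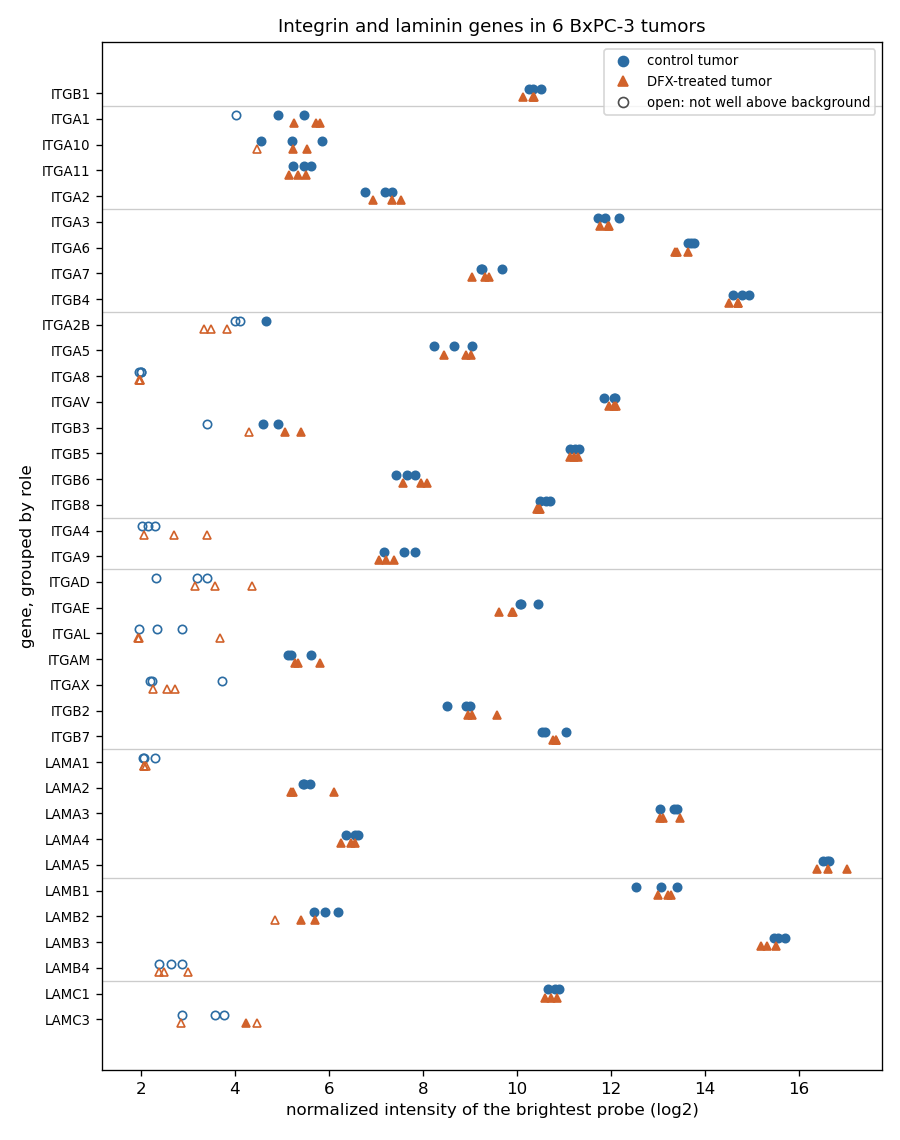
Normalized log2 intensity of the brightest probe of 37 of the 38 integrin and laminin genes (x axis) by gene, grouped by role (y axis). Circles are the 3 control tumors and triangles the 3 DFX-treated tumors; open symbols are arrays on which the probe was not well above background. The groups overlap in all tested genes shown but ITGA2B, ITGAE, ITGA6 and ITGB8, and intensities of different genes come from different probes and are not to be compared.

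Across the family the DFX-treated and control tumors differed little. Of the 31 tested genes 2 were called (6.45%), ITGAE and ITGA2B, both lower in the DFX tumors, against 1812 of all 22718 tested genes (7.98%). No member was called higher, where the background was 3.68% higher and 4.29% lower. After Benjamini-Hochberg adjustment no member passed in limma, with adjusted p-values of 0.546 to 0.993, and neither did any other gene on the array. The share of integrin and laminin genes called was thus no greater than the share of all genes.

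Direction was mixed as well. Among the tested members 13 had a higher mean in the DFX tumors and 18 a lower one, with a median difference of -0.03 over the integrins and -0.04 over the laminins, beside -0.01 over all tested genes. Relative to the control mean, the median integrin stood at -0.09, 0.09 and -0.0027 in control tumors 1 to 3 and at -0.01, -0.05 and -0.02 in DFX tumors 1 to 3. The DFX tumors lay within the range of the controls on this measure. The median of the laminins was -0.14, 0.08 and 0.05 in the controls and -0.07, -0.13 and 0.0014 in the DFX tumors, again within the control range. In 4 of the 31 genes (12.9%), ITGA2B, ITGAE, ITGA6 and ITGB8, all DFX tumors lay below all controls, and in 0 above. Over all tested genes the groups did not overlap in 15.4%, with 8.41% below and 7.03% above.

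The intervals show how large a change these 6 tumors leave room for. For all 25 genes well above background on every array, the 95% interval of the difference from limma lay within a 2-fold change in either direction. For 16 of the 25 it lay within 1.5-fold. Over the whole array, 17803 genes were well above background on every array. Their intervals lay within 2-fold for 16099 and within 1.5-fold for 11230. The differences of these 25 genes ran from -0.39 (ITGAE) to 0.38 (ITGB2), and their intervals had a median half-width of 0.39. Their median within-group SD was 0.20, and their median difference regardless of sign was 0.14. For all genes well above background on every array these medians were 0.17 and 0.13. ITGAE was the single gene among the 25 whose interval left out 0.

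**Figure D2:**
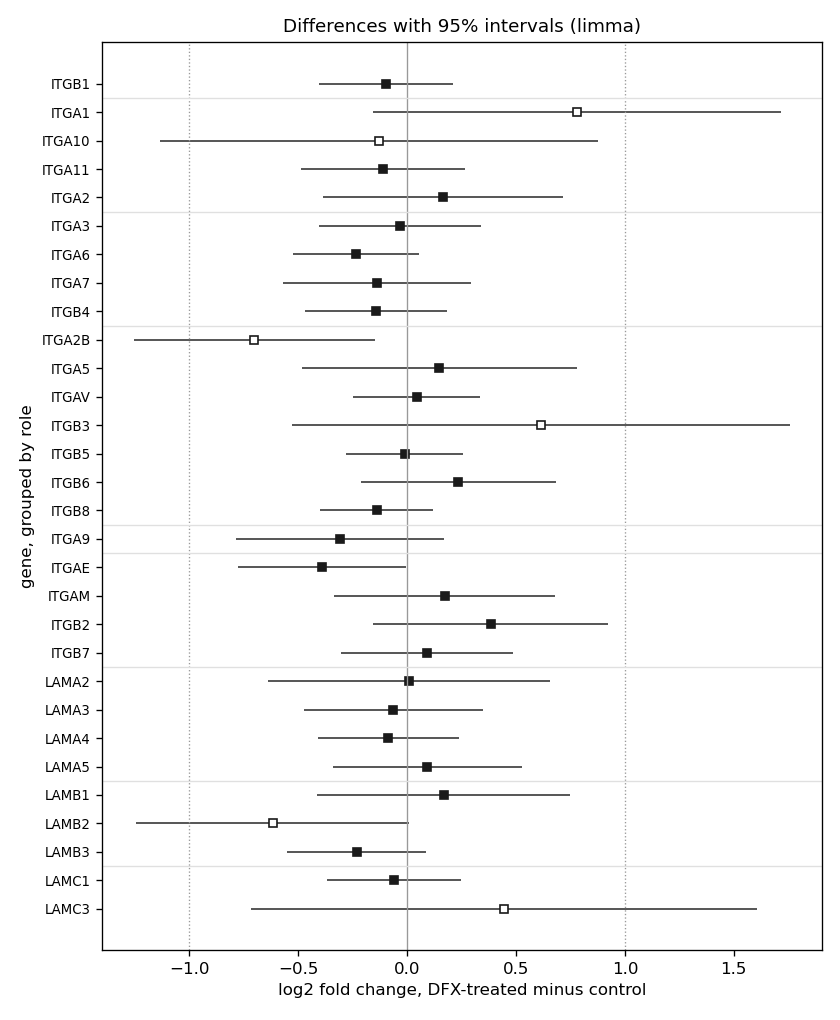
Difference between DFX-treated and control tumors on the log2 scale (x axis) for 30 of the 31 tested integrin and laminin genes, grouped by role (y axis). Squares are limma estimates from 3 against 3 tumors, bars are 95% intervals, dotted lines mark a 2-fold change, and open squares are genes not well above background on all 6 arrays. All filled squares have bars inside the dotted lines, and among them only that of ITGAE stays clear of 0.

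The common beta1 subunit differed by less than the spread between tumors. ITGB1 pairs with most of the matrix-binding alpha subunits. It measured 10.35, 10.51 and 10.26 in control tumors 1 to 3 and 10.36, 10.13 and 10.35 in DFX tumors 1 to 3. The groups overlapped, and the difference was -0.10 (SE 0.12, 95% interval -0.40 to 0.21, unadjusted p = 0.470 and adjusted p = 0.844 in limma).

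The 4 laminin receptor subunits all had lower means in the DFX tumors, and none was called. ITGA6, which pairs with ITGB4 in hemidesmosomes and with ITGB1 elsewhere, measured 13.76, 13.64 and 13.70 in control tumors and 13.41, 13.36 and 13.63 in the DFX tumors. All 3 DFX tumors lay below all 3 controls, DFX tumor 3 by little, and the difference was -0.23 (SE 0.12, unadjusted p = 0.092 and adjusted p = 0.640 in limma). ITGA6 was called lower in 5 of 19 alternatives: normexp, the raw mean signal, Kruskal-Wallis, array weights and without DFX replicate 3. With the mean of its tested probes the difference was -0.13 and not called. A second ITGA6 probe, also well above background on all arrays, gave -0.03 (SE 0.14) with overlapping groups. ITGB4, whose long cytoplasmic tail anchors keratin filaments, measured 14.60, 14.93 and 14.80 in the controls and 14.50, 14.70 and 14.70 in the DFX tumors, a difference of -0.14 (SE 0.13, interval -0.46 to 0.18). ITGA3, the laminin-332 receptor subunit that pairs with ITGB1, differed by -0.03 (interval -0.40 to 0.33), and ITGA7, best known from muscle, by -0.14 (interval -0.56 to 0.29). In each of these last 3 genes the groups overlapped. The summed linear intensity of 7 skeletal muscle markers, 4 of them on no array well above background, was 5654 to 12249 in the controls and 9284 to 12153 in the DFX tumors; its part in the ITGA7 values was not tested.

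Collagen receptor subunits showed no called gene either. ITGA2, the alpha subunit of the epithelial collagen receptor, measured 6.77, 7.20 and 7.35 in the controls and 7.34, 6.93 and 7.55 in the DFX tumors, a difference of 0.16 (interval -0.38 to 0.71). ITGA11, a collagen receptor subunit of fibroblasts, differed by -0.11 (interval -0.48 to 0.26). ITGA1, which binds collagen IV, measured 4.93, 5.48 and 4.03 in the controls and 5.72, 5.25 and 5.81 in the DFX tumors. Control tumor 3 was not well above background, the groups overlapped in control tumor 2, and the difference of 0.78 (SE 0.38, unadjusted p = 0.086 and adjusted p = 0.635 in limma) had an interval of -0.15 to 1.71. It was 0.39 without control replicate 3 and 0.22 with normexp background correction or the raw mean signal, and it was 1.11 and called without control replicate 2. ITGA10, a subunit best known from cartilage, differed by -0.13 with an interval of -1.13 to 0.87. The last 2 genes could have differed more than 2-fold or not at all at this precision.

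Subunits of the RGD receptors, which bind an arginine-glycine-aspartate motif in fibronectin, vitronectin and latent TGF-β, held 1 called gene of 7 tested, where 7.98% of all genes were called. ITGAV, the alpha subunit shared by most of them, measured 12.09, 12.07 and 11.85 in the controls and 12.06, 11.95 and 12.12 in the DFX tumors, a difference of 0.04 (interval -0.24 to 0.33). Of the beta subunits that pair with ITGAV, ITGB5 differed by -0.01 (interval -0.27 to 0.25) and ITGB6, which is restricted to epithelia, by 0.24 (interval -0.21 to 0.68). ITGA5, the fibronectin receptor subunit, differed by 0.15 (interval -0.48 to 0.77). In these 4 genes the groups overlapped. ITGB8, which with ITGAV holds latent TGF-β, measured 10.49, 10.61 and 10.71 in the controls and 10.47, 10.43 and 10.49 in the DFX tumors. Its groups did not overlap, but by so little that the nearest tumors round to the same value, and the difference of -0.14 (SE 0.10, unadjusted p = 0.231 and adjusted p = 0.734 in limma) was not called.

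ITGA2B and ITGB3 together form the fibrinogen receptor of platelets. ITGA2B measured 3.996, 4.11 and 4.66 in control tumors 1 to 3 and 3.49, 3.83 and 3.35 in DFX tumors 1 to 3. The groups did not overlap, and limma called the gene lower (unadjusted p = 0.020, adjusted p = 0.546). However, control tumor 3 alone was well above background, no DFX tumor was, and the control mean of 4.26 ± 0.36 (SD, n = 3) lay below the mean over the DFX arrays of the lowest signal well above background, so no fold is given. Without DFX replicate 1 or DFX replicate 3 the gene was no longer called by limma, nor was it with normexp background correction, the raw mean signal or the slide column as a block. ITGB3 measured 3.41, 4.92 and 4.60 in the controls and 5.41, 4.31 and 5.06 in the DFX tumors, was well above background on 2 arrays of each group, and differed by 0.62 (interval -0.52 to 1.75). Of 6 platelet and megakaryocyte markers, 4 were well above background on no array, and the summed linear intensity of the list was 96.5 to 133 in the controls and 100 to 138 in the DFX tumors.

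Leukocyte integrins held the other called gene, 1 of 4 tested beside the same 7.98%. ITGAE pairs with ITGB7 on intraepithelial lymphocytes and binds E-cadherin. It measured 10.06, 10.09 and 10.45 in control tumors 1 to 3 and 9.89, 9.92 and 9.62 in DFX tumors 1 to 3, well above background on all 6 arrays. Every DFX tumor lay below every control, and the mean was lower by 23.7% (10.20 ± 0.22 against 9.81 ± 0.16, SD, n = 3 each; difference -0.39, SE 0.16, 95% interval -0.77 to -0.01, unadjusted p = 0.046 and adjusted p = 0.585 in limma). The call was lost on leaving out control replicate 2 or 3, or any 1 of the DFX replicates, though the mean stayed lower each time, by 0.27 to 0.46 on the log2 scale. ITGB7 measured 11.04, 10.54 and 10.59 in the controls and 10.77, 10.84 and 10.84 in the DFX tumors, a difference of 0.09 (interval -0.30 to 0.48) with overlapping groups.

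Beside these, ITGB2, the beta subunit of the leukocyte integrins, measured 8.91, 9.002 and 8.52 in the controls and 9.04, 9.59 and 8.97 in the DFX tumors. DFX tumor 2 stood above the rest, the groups overlapped, and the difference was 0.38 (SE 0.22, interval -0.15 to 0.92, unadjusted p = 0.130 and adjusted p = 0.670 in limma). A second ITGB2 probe, well above background on all 6 arrays, gave 0.02 (SE 0.09, interval -0.21 to 0.26) with overlapping groups. ITGAM, the alpha subunit that pairs with ITGB2 on myeloid cells, differed by 0.17 (interval -0.33 to 0.68). ITGA9, found on neutrophils and smooth muscle, differed by -0.31 (interval -0.78 to 0.17). A list of leukocyte markers that includes ITGAM had a summed linear intensity of 2018 to 2347 in the controls and 2120 to 2486 in the DFX tumors, with 5 of its 8 genes on the array well above background on all 6 arrays, CSF1R on none, and no gene called. The part of host leukocytes in the ITGAE, ITGB2 and ITGB7 values was not tested.

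Laminin chains held no called gene among 10 tested, where 7.98% of all genes were called. LAMA3 and LAMB3 belong to laminin-332, the laminin of epithelial basement membranes that ITGA6 with ITGB4 and ITGA3 with ITGB1 bind, and both overlapped between groups. LAMA3 measured 13.04, 13.41 and 13.34 in the controls and 13.10, 13.04 and 13.46 in the DFX tumors, a difference of -0.06 (interval -0.47 to 0.34). LAMB3 measured 15.56, 15.69 and 15.48 in the controls and 15.19, 15.33 and 15.51 in the DFX tumors, with 2 of 3 DFX tumors below every control and a difference of -0.23 (SE 0.13, interval -0.55 to 0.08, unadjusted p = 0.121 and adjusted p = 0.663 in limma). Neither chain could have changed as much as 2-fold within these intervals.

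Of the other alpha chains, LAMA2, the chain of muscle and nerve basement membranes, differed by 0.01 (interval -0.63 to 0.65) and LAMA4, the chain of vessel walls, by -0.09 (interval -0.41 to 0.23). For 7 endothelial markers the summed linear intensity was 701 to 1088 in the controls and 692 to 754 in the DFX tumors. Of the 6 tested, 2 were called, PECAM1 higher and TIE1 lower, beside 7.98% of all genes. The part of endothelial cells in the LAMA4 values was not tested. LAMA5, the alpha chain of most adult epithelial basement membranes, measured 16.63, 16.60 and 16.50 in the controls and 16.63, 16.39 and 17.01 in the DFX tumors at its brightest probe. That difference was 0.09 (interval -0.34 to 0.52). The probe named for the NM_005560 transcript measured 12.00, 12.09 and 11.61 against 11.85, 11.74 and 11.57, a difference of -0.18 (SE 0.16, interval -0.58 to 0.22). Both probes overlapped between groups and neither was called, so LAMA5 has no settled sign here.

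LAMB1 and LAMC1, the beta and gamma chains of the widespread laminins, differed by 0.17 (interval -0.41 to 0.74) and by -0.06 (interval -0.36 to 0.24). LAMB2, their counterpart in synaptic, kidney and vessel basement membranes, came close to the threshold. At its brightest probe it measured 5.69, 6.21 and 5.93 in the controls and 5.71, 4.86 and 5.40 in the DFX tumors, a difference of -0.62 (SE 0.25, unadjusted p = 0.051 and adjusted p = 0.594 in limma), with DFX tumor 2 not well above background. It was -0.38 without DFX replicate 2. LAMB2 was called in 5 of 19 alternatives: median scaling, normexp, the slide column block, without control replicate 1 and without DFX replicate 1. A second LAMB2 probe, well above background on all 6 arrays, measured 5.54, 5.06 and 5.21 against 5.32, 5.92 and 5.06, a difference of 0.16 (SE 0.25). On that probe DFX tumor 2 was the highest of the 6 tumors, and on the brightest probe it was the lowest. LAMC3 was well above background on DFX tumor 1 alone, and no fold is given. Fibroblasts also make laminins. Their marker list had a summed linear intensity of 11880 to 19304 in the controls and 10546 to 13225 in the DFX tumors. Of its 6 tested genes 3 were called, DCN and PDGFRA lower and LUM higher, beside 7.98% of all genes. The part of fibroblasts in the laminin values was not tested.

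Genes with several probes show how far a value rests on the probe. Of the 38 genes, 24 had 1 probe, and 8 had more than 1 tested probe. Besides LAMA5 and LAMB2, the sign differed between the tested probes of LAMA3 (-0.06 and 0.17), LAMB1 (0.17 and -0.06) and LAMA4 (-0.09, 0.13 and -0.03), leaving out 1 probe each of LAMB1 and LAMA4 that was well above background on no array. The probes of ITGA6 and ITGB2 had the same sign within each gene but not the same size. They gave -0.23 and -0.03 for ITGA6, and 0.38 and 0.02 for ITGB2. That LAMA4 probe was the only further probe of the family with an unadjusted limma p under 0.05 (unadjusted p = 0.029, adjusted p = 0.565), with no fold given. Counting a gene when any of its tested probes passed gave 3 of 31, against 10.8% of all genes counted that way.

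**Figure D3:**
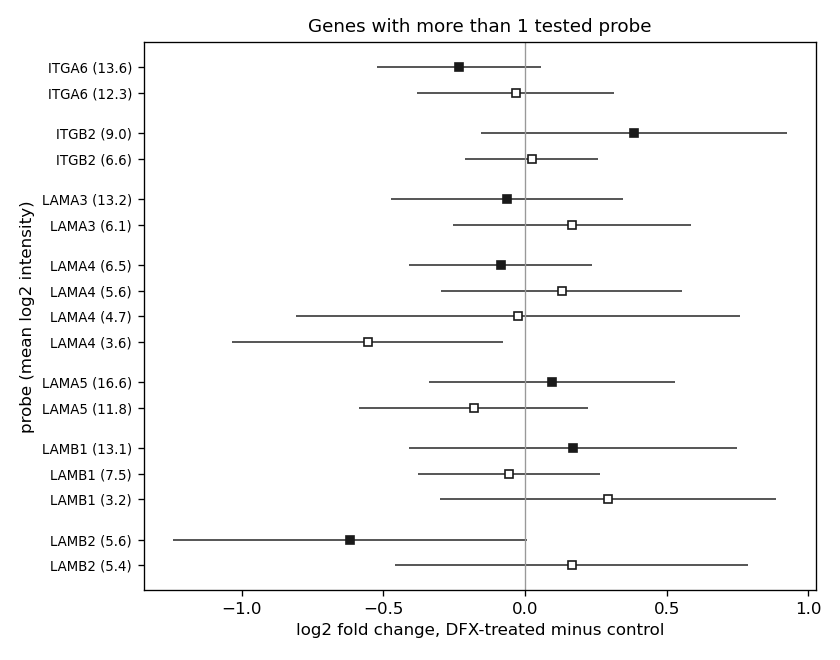
Difference between DFX-treated and control tumors on the log2 scale (x axis) for every tested probe of 7 of the 8 genes with more than 1 tested probe (y axis, with the probe's mean log2 intensity in parentheses). Filled squares are the brightest probe of a gene, open squares the others, the dimmest LAMB1 and LAMA4 probes being well above background on no array, and bars are 95% intervals from limma. The bars of probes of 1 gene overlap in all 7 genes, and the sign differs in 5 of them.

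Probes printed at several spots give the noise of single spots on an array. The probes of ITGB1, ITGAV, ITGB2 and ITGAM were each printed at 10 spots. Within an array the spot SD was 0.02 to 0.04 for ITGAV, 0.02 to 0.08 for ITGB1 and 0.02 to 0.09 for ITGB2. Between tumors of a group the SD was 0.13 (control) and 0.08 (DFX) for ITGAV, 0.13 and 0.13 for ITGB1, and 0.26 and 0.34 for ITGB2. With 1 array per tumor, these SDs hold labeling, hybridization and array error as well as differences between tumors, which cannot be told apart. For ITGAM, whose log2 intensity was lower, spot SDs were 0.11 to 0.30 beside SDs between tumors of 0.27 and 0.29.

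**Figure D4:**
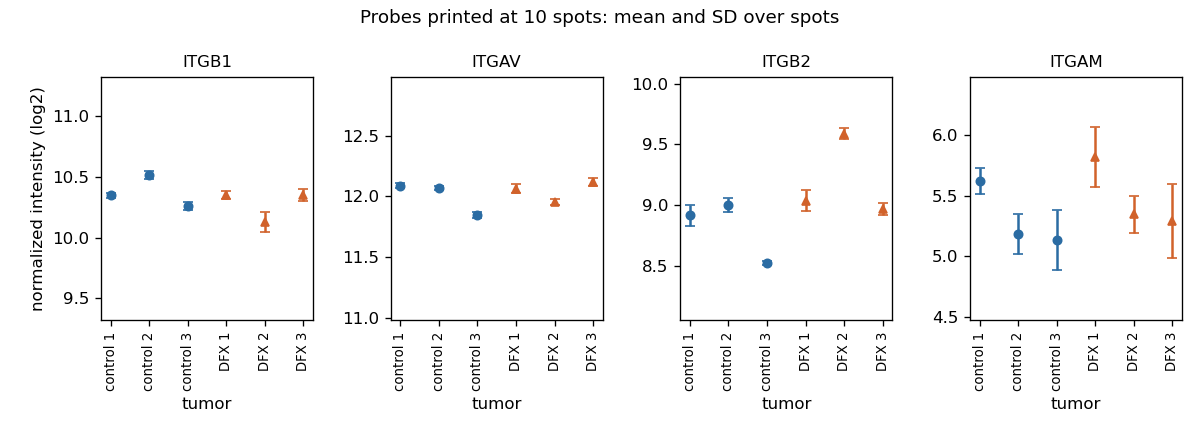
Normalized log2 intensity (y axis, each panel with its own range) of the probes of ITGB1, ITGAV, ITGB2 and ITGAM in the 3 control (circles) and 3 DFX-treated tumors (triangles). Points are means over up to 10 spots of the same probe on an array and bars are the SD over those spots. In all but the ITGAM panel the bars are short beside the range spanned by the tumors of a group.

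Integrins and laminins act as pairs and trimers, so 13 pairs of known partners were compared across the 6 tumors. ITGAV with ITGB6 had a Pearson correlation of r = 0.84 (exact permutation p = 0.025, two-sided, adjusted p = 0.325 over the 13 pairs), with a Spearman rho of 0.77 (exact permutation p = 0.103, adjusted p = 0.668). Without the 2 tumors farthest from the median of ITGAV, r was 0.35 over the 4 left, and with group means removed it was 0.87 over all 6. ITGAV had r = -0.45 with ITGB5 and r = -0.53 with ITGB8. ITGA6 with ITGB4 had r = 0.34, which was -0.15 with group means removed. Without the 2 tumors farthest from the median of ITGA6 it was -0.63. ITGAE with ITGB7 had r = -0.46, which was -0.42 with group means removed. Without the 2 tumors farthest from the median of ITGAE it was -0.14. No pair passed after adjustment.

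Around the receptors, 61 of 63 listed genes of adhesion and basement membranes were tested, and 6 were called (9.84%, beside 7.98% of all genes), 2 higher and 4 lower in the DFX tumors. Their adjusted p-values in limma were 0.513 to 0.588. All 6 hemidesmosome partners (PLEC, DST, COL17A1, CD151, KRT5 and KRT14) and all 14 other laminin receptors and basement membrane genes, among them collagen IV chains, nidogens and dystroglycan, were tested without a call. The calls fell among the soluble and matrix ligands of integrins (2 of 14 tested, both lower) and the focal adhesion adaptors and kinases (4 of 27 tested, 2 in each direction).

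Among the ligands, VTN, or vitronectin, the plasma and matrix protein that ITGAV integrins bind, measured 6.03, 5.83 and 6.29 in the controls and 5.26, 5.51 and 5.32 in the DFX tumors. Every DFX tumor lay below every control, by -0.69 on average (SE 0.15, unadjusted p = 0.0041 and adjusted p = 0.513 in limma). MFGE8, an RGD protein that links dying cells to ITGAV integrins on phagocytes, measured 7.004, 7.15 and 7.24 against 6.82, 6.50 and 6.56, a difference of -0.51 (SE 0.13, unadjusted p = 0.0090 and adjusted p = 0.514 in limma) without overlap. Both probes were well above background on all 6 arrays, and both calls held whichever single tumor was dropped. With the raw mean signal the differences shrank to -0.30 for each, and with the slide column as a block MFGE8 was no longer called.

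Inside the cell, TNS3 and TNS1 are tensins, which tie integrin beta tails to actin, and they moved in opposite directions. TNS3 measured 10.40, 10.43 and 10.57 in the controls and 10.14, 9.996 and 10.02 in the DFX tumors, a difference of -0.42 (SE 0.11, unadjusted p = 0.0081 and adjusted p = 0.514 in limma). TNS1 measured 8.62, 8.90 and 8.03 in the controls and 9.34, 8.96 and 9.39 in the DFX tumors, a difference of 0.71 (SE 0.25, unadjusted p = 0.029 and adjusted p = 0.569). Neither overlapped between groups. ILK, the integrin-linked pseudokinase that binds the tails of ITGB1 and ITGB3, measured 11.02, 11.16 and 10.92 against 10.704, 10.78 and 10.77, a difference of -0.28 (SE 0.11, unadjusted p = 0.040 and adjusted p = 0.580). VASP, an actin-elongating protein of focal adhesions, measured 12.18, 12.23 and 12.10 against 12.40, 12.36 and 12.53, a difference of 0.26 (SE 0.10, unadjusted p = 0.047 and adjusted p = 0.588). The TNS3 call held whichever single tumor was dropped. The TNS1 call was lost without control replicate 1 or 3 or without DFX replicate 1 or 3, the ILK call held only without control replicate 3, and the VASP call was lost whichever tumor was dropped. The TNS1 difference was 0.47 without control replicate 3, that of VASP was 0.15 and not called under median scaling, and none of these 4 was called with the slide column as a block. The receptors that bind these proteins, ITGB1, ITGB3, ITGAV and ITGB5, were not called.

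**Figure D5:**
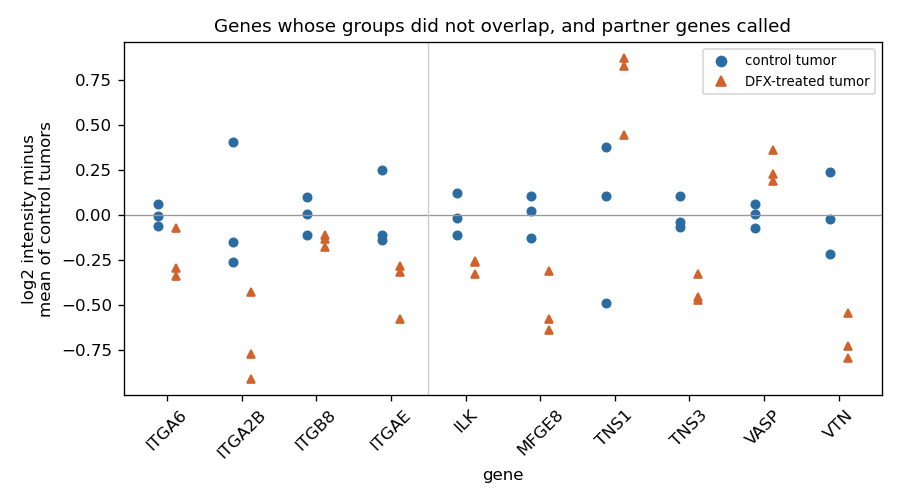
Log2 intensity minus the mean of the control tumors (y axis) for the 4 integrin genes whose groups did not overlap (left of the line) and the 6 called adhesion genes outside the integrin and laminin families (right of it), by gene (x axis). Circles are the 3 control tumors and triangles the 3 DFX-treated tumors. The DFX tumors lie below the controls in all 4 integrins and in ILK, MFGE8, TNS3 and VTN, and above them in TNS1 and VASP.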

How the data were processed

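Groups came from the sample titles and treatment labels, 3 control and 3 DFX tumors. The authors deposited 1 scanner file per array (Agilent Feature Extraction 10.7.1.1 in the file headers, 9.5.1.1 in the submitters' processing notes) with spot intensities on a linear scale, background p-values and flags, and a table of normalized intensities, used as an alternative. Here the processed signal of 58717 non-control spots was log2-transformed and quantile-normalized, 1398 spot values flagged as outliers were left out, spots were averaged per probe (50599), and 31807 probes passed the detection filter (per-spot background p-value below 0.05 on each array) and were fitted in limma (version 3.58.1, R version 4.3.3, functions lmFit and eBayes, prior degrees of freedom 2.04), with Benjamini-Hochberg adjustment over all of them. The per-spot p-value is that of the file headers, and its column is not named by the methods. The procedure was tested on simulated data.

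The members and all lists were chosen with earlier results of these data known. Counts cover every member, 1 of which is not reported by name here; of the adhesion lists the called genes are named, and marker lists are given by sums and counts. The alternatives for the adhesion lists and the naming of called and brightest markers were added after the data were seen. All 38 symbols matched the RefSeq table of GRCh38.p14, used for names only. Intervals cover the spread between tumors, and the number of arrays limits the precision.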

Additional observations from a re-analysis of the deposited data

How the results depend on the processing

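No integrin or laminin gene passed the adjusted limma threshold under any alternative. The count of 2 called members became 1 with 75th percentile scaling (ITGA2B), with a filter for signal well above background everywhere (ITGAE), and with the slide column as a block (LAMB2), and 4 by Kruskal-Wallis and by array weighting. The count was 3 with normexp background correction (ITGA6, ITGAE and LAMB2), beside 8.67% of all genes. Leaving out 1 tumor at a time gave 1 to 3. The share of all genes called was 15.4% by Kruskal-Wallis, 11.1% by array weighting and 4.42% with the slide column block. It was 7.8% with 75th percentile scaling, 8.84% with the well-above-background filter, and 5.42% to 8.09% with 1 tumor left out. The 6 called adhesion genes became 10 by Kruskal-Wallis and 2 with the slide column block, and were 3 to 8 with 1 tumor left out. With 3 against 3 tumors, a Kruskal-Wallis p under 0.05 requires groups without overlap, so its counts repeat the genes without overlap. Median scaling, which put the all-probe median at -0.10, gave a median integrin difference of -0.13. With 1 tumor left out that median was -0.06 to 0.0075 and the laminin median -0.12 to 0.0012, the signs turning without DFX replicate 3 and control replicate 2, respectively. The slide column block, which compares only control tumors 1 and 3 with DFX tumors 2 and 3, also turned both, to 0.00029 and 0.058.

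Same-numbered tumors did not deviate together (correlations 0.03, 0.03 and 0.02), and the main fit did not pair them. With 3 tumors per group this cannot show that the numbers carry no pairing. With the replicate block 1 member (ITGA2B) and 3 adhesion genes were called, beside 7.25% of all genes.

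Over 30 of the 31 tested members, 499 of 565 values kept direction and side of the threshold, 15 lost a call, 16 gained one and 35 turned in sign, with 12 members never turning. In effect the slide column block leaves out control tumor 2 and DFX tumor 1, so its turns cannot be told apart from their absence. With the slide column block the sign turned for ITGA3 (0.065), ITGAM (-0.058), ITGB4 (0.00029), ITGB5 (0.035), LAMA3 (0.058), LAMC1 (0.059) and LAMC3 (-0.014, a probe near background whose sign was not settled). It turned for ITGAV (-0.071), ITGB7 (-0.020) and LAMA5 (-0.038) with median scaling, ITGA5 (-0.034) and LAMA2 (-0.012) with array weights, ITGA11 (0.00026) with 75th percentile scaling, LAMA3 (0.051) and LAMA5 (-0.044) with the mean of all tested probes, and LAMB2 (0.16) with the well-above-background filter. With 1 tumor left out the ranges that crossed 0 were ITGA10 -0.46 to 0.19, ITGA2 -0.0060 to 0.33, ITGA3 -0.14 to 0.093, ITGA5 -0.063 to 0.35, ITGA7 -0.22 to 0.0079, ITGAV -0.033 to 0.090, ITGB5 -0.056 to 0.034, ITGB7 -0.0024 to 0.25, LAMA2 -0.29 to 0.17, LAMA3 -0.19 to 0.016, LAMA5 -0.074 to 0.24, LAMB1 -0.065 to 0.37 and LAMC1 -0.13 to 0.0044. The LAMB2 value is that of its second probe, since the filter dropped the brightest one. The LAMA3 and LAMA5 values under the mean of all tested probes average probes of opposite sign. The cause of the other turns was not tested. ITGAE kept its sign throughout (-0.49 to -0.27, unadjusted limma p 0.022 to 0.167 over the alternatives) but lost its call in 10 of 19. Among these were 75th percentile scaling, median scaling, the replicate block, the slide column block and array weights. ITGA2B lost its call with normexp (-0.17), the raw mean signal (-0.11) and the slide column block. Dim probes near background limit what can be said of ITGA2B, ITGB3, LAMC3 and the 7 untested genes.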
